A study of Taeniopygia guttata with 2 samples.

Results

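Joint cluster 17 of Area X is a small population of GABAergic neurons named here by LHX6, NKX2-1 and CALB2. NKX2-1 was about as high in joint cluster 14. It was taken as the cluster of the combined data that holds most nuclei of cluster 17 of the scrambled library clustered alone, and all its nuclei in both libraries were used. It held 336 of 27245 nuclei. Of the 172 nuclei in cluster 17 of the scrambled library, 167 lay in it, and these were all of its nuclei from that library. The other 169 came from the second library.

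LHX6 and NKX2-1 are homeobox transcription factors of the medial ganglionic eminence, the ventral forebrain zone that in mammals gives rise to most striatal and many cortical interneurons. CALB2 encodes calretinin, a calcium-binding protein that marks one class of striatal interneuron in mammals. Striatal interneurons are local GABAergic or cholinergic cells that shape the firing of the far more numerous medium spiny neurons (MSNs).

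The tissue was Area X, the striatal song nucleus, of adult male zebra finches labelled as 160 to 185 days post hatch. The methods of the study give another age range. All birds had received an adeno-associated virus with a Cre-switchable hairpin construct, with a scrambled hairpin (shScr) in one group and a hairpin against FoxP2 (shFoxP2) in the other. Punches from 2 birds per condition were pooled before nuclei were isolated, so each condition is 1 library, and birds cannot be separated. Bird, dissection, library and hairpin cannot be told apart in any difference between the libraries. No test between conditions was possible, and all intervals given here are 95% intervals of counting error alone, exact Poisson for levels, Clopper-Pearson for shares and exact binomial for ratios. The labels call the cell type striatal projection neurons, which describes the tissue sample and not these nuclei.

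The libraries held 14289 and 12956 nuclei, with a median of 2300 and 2871 unique molecular identifiers (UMIs, each a counted RNA molecule) per nucleus. Cluster 17 made up 1.17% (1.00 to 1.36) of the scrambled library and 1.30% (1.12 to 1.51) of the library labelled shFoxP2. The difference was 0.136 percentage points, with a normal-approximation counting interval of -0.127 to 0.399. Its nuclei had a median of 2625 UMIs and 1388 genes in the scrambled library, and of 3002 UMIs and 1502 genes in the other. The summed depth of the cluster was 448093 and 527833 UMIs. Every nucleus had at least 1070 UMIs, and 0 and 1 nuclei were among the 8% of each library with the highest doublet scores. The scoring called no doublets in either library, so low scores do not show that the cluster is free of them. Of the 47 barcodes that occur in both libraries, 0 and 2 belonged to nuclei of the cluster. FOXP2 itself had 22 and 25 UMIs here, 0.491 and 0.474 per 10000, too few for a direction. In MSNs (joint clusters 1 to 5) it had 11989 and 16123 UMIs, a log2 ratio of 0.30 (0.27 to 0.34), and in joint cluster 16 a ratio of 0.60 (0.45 to 0.75). It was level in joint cluster 4, one of the MSN clusters, at 12.8 and 12.7 per 10000, and in joint cluster 12, at 12.5 and 12.7. The targeted gene was thus higher in the library labelled shFoxP2 over MSNs as a whole and in cluster 16, against that label. The study quantified its knockdown as FoxP2 protein, while these are RNA counts of nuclei. No direction given here should be read as that of a knockdown.

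The 3 names of the cluster were checked first. LHX6 had 208 UMIs in the scrambled library and 192 in the other, or 4.64 (4.03 to 5.32) and 3.64 (3.14 to 4.19) UMIs per 10000. CALB2 had 288 and 139 UMIs, or 6.43 (5.71 to 7.21) and 2.63 (2.21 to 3.11) per 10000. Both genes were higher in this cluster than in each of the other 22 joint clusters, in each library, and the intervals did not overlap those of the next cluster. NKX2-1 had 57 and 59 UMIs, or 1.27 (0.963 to 1.65) and 1.12 (0.851 to 1.44) per 10000. Its level did not set the cluster apart: joint cluster 14, where parvalbumin (PVALB) was higher, had 1.18 and 1.15 per 10000, and joint cluster 21 had 1.24 in the scrambled library. These genes belong to the profile from which the clusters were made, so their levels are a description and not a finding.

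**Figure D1:**
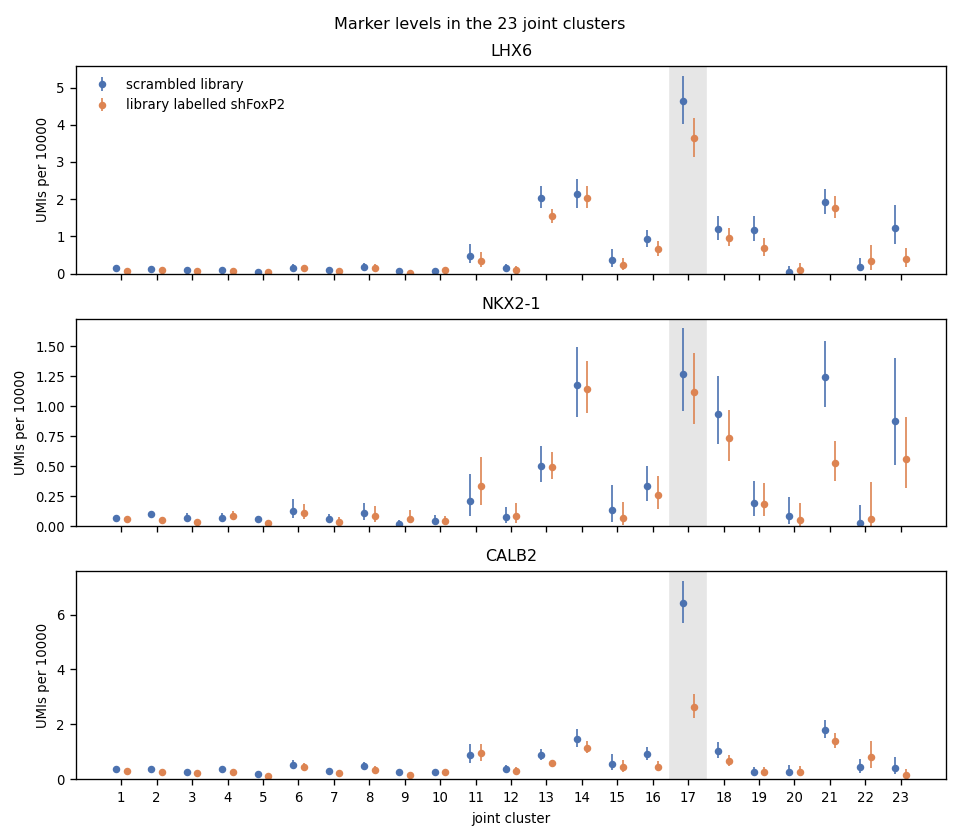
Levels of LHX6, NKX2-1 and CALB2 (UMIs per 10000, summed over the nuclei of each joint cluster) by joint cluster, with blue points for the scrambled library, orange points for the library labelled shFoxP2 and bars for the 95% Poisson interval. Cluster 17 (grey band) stands above all others for LHX6 and CALB2, while its NKX2-1 level of 1.27 and 1.12 is close to the 1.18 and 1.15 of cluster 14.

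Within the cluster the markers were found in part of the nuclei. LHX6 was detected, with at least 1 UMI, in 62.9% (55.1 to 70.2) and 55.03% (47.2 to 62.7) of nuclei. CALB2 was detected in 65.9% (58.1 to 73.0) and 45.6% (37.9 to 53.4). NKX2-1 was detected in 29.3% (22.6 to 36.9) and 24.3% (18.01 to 31.4). In oligodendrocytes (joint cluster 8), which should lack these genes, the shares were 3.75% and 3.58% for LHX6, 8.54% and 7.67% for CALB2 and 2.29% and 2.05% for NKX2-1, at median depths of 1374.5 and 1515 UMIs. With every nucleus thinned to 1000 UMIs, the shares in cluster 17 were 35.9% and 26.6% for LHX6, 39.5% and 21.9% for CALB2 and 14.97% and 12.4% for NKX2-1. The thinned shares in oligodendrocytes were 2.06% and 1.40%, 5.66% and 5.60%, and 1.29% and 1.12%.

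Detection of 1 marker said little about the others. In the scrambled library CALB2 was found in 70.5% (60.8 to 79.0) of the 105 nuclei with LHX6 and in 58.1% (44.8 to 70.5) of the 62 without it. In the other library the shares were 44.1% (33.8 to 54.8) and 47.4% (35.8 to 59.2). NKX2-1 was found in 27.6% and 26.9% of nuclei with LHX6, and in 32.3% and 21.1% of those without. The intervals overlapped in each case. All 3 markers were detected together in 19 and 9 nuclei, and none of them in 18 and 35.

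The nuclei carried the genes of GABAergic neurons. GAD1, which makes GABA, had 9.49 and 9.53 UMIs per 10000, GAD2 had 7.63 and 6.92, and the vesicular transporter SLC32A1 had 4.87 and 5.06. All 6 genes of GABA synthesis and transport had library ratios within 0.16 of 0 on the log2 scale. Other neuron types were at low levels. Of 5 glutamatergic markers, NEUROD2 had 0 UMIs and the summed level was 0.469 and 0.322 per 10000. The 4 cholinergic markers summed to 0.379 and 0.208, with ISL1 at 0 and 1 UMIs. The 12 MSN markers summed to 34.4 and 32.2, against 274 in MSNs. FOXP1, a transcription factor of MSNs, had 1.495 and 1.67 per 10000, against 43.0 in MSNs. The 6 astrocyte markers summed to 4.95 and 4.02, against 2.39, 3.38 and 2.86 in clusters 14, 16 and 13 and 3.49 in MSNs, with SLC1A2 at 144 and 108 UMIs and GFAP at 0, and their part in the results was not tested. SOX10 and CSPG4 of 3 oligodendrocyte precursor markers, and P2RY12 and CX3CR1 of 5 microglial markers were also at 0.

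Among 43 transcription factors of the ventral telencephalon and of interneurons, the cluster was set against 3 other interneuron clusters. These were joint cluster 14, where PVALB was 3.76 per 10000, joint cluster 16, where somatostatin (SST) was 6.16 and neuropeptide Y (NPY) 21.2, and joint cluster 13. PVALB was also high in cluster 13, at 3.87 per 10000 in the scrambled library and 2.83 in the other. Over all genes, the profile of cluster 13 (Pearson r 0.921) was less like cluster 17 than those of clusters 21, 18 and 19 (0.963, 0.946 and 0.941). A gene was called different when it was at least 2-fold apart in the same direction in each library. Over all genes tested, cluster 17 was higher than cluster 14 in 177 of 6461 (2.74%) and lower in 257 (3.98%). Against cluster 16, it was higher in 166 of 6288 (2.64%) and lower in 385 (6.12%), and against cluster 13 higher in 383 of 7756 (4.94%) and lower in 698 (9.00%). Of the transcription factors tested, 5 of 34 were higher and 6 lower than in cluster 14, 9 of 36 higher and 9 lower than in cluster 16, and 19 of 37 higher and 6 lower than in cluster 13. The clusters were built from these same genes, so the counts describe the profile and test nothing.

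SOX6, a factor needed for maturation of LHX6 interneurons in mice, had 820 and 1054 UMIs, or 18.3 and 19.97 per 10000, against 4.25, 15.3 and 9.48 in clusters 14, 16 and 13. PROX1, a homeobox factor of interneurons of the caudal ganglionic eminence in mice, had 9.17 and 9.30, against 4.10, 6.82 and 0.0756. NFIB had 20.04 and 19.002, against 12.9, 4.001 and 0.740. MAF, a factor of interneurons of the medial ganglionic eminence in mice, had 4.55 and 7.31 per 10000, below the 20.1 and 17.2 of clusters 14 and 16 and above the 0.935 of cluster 13. TSHZ2 was at 0.0670 and 0.189, lower than in each compared cluster, where it lay between 1.78 and 6.87.

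Of the peptide and receptor genes, CCK and CHRM2 were at least 2-fold higher than in each of 4 compared clusters, joint cluster 21 included. No share over all genes was computed for this 4-cluster rule, here or below, so its counts only describe the profile. In cluster 21, 53.2% and 53.5% of nuclei had a doublet score in the top 8%, so its values are given with that limit. CCK, which encodes the peptide cholecystokinin, had 884 and 741 UMIs, or 19.7 (18.4 to 21.1) and 14.04 (13.05 to 15.1) per 10000, against 2.84, 1.07, 1.38 and 5.54 in clusters 14, 16, 13 and 21. Joint cluster 18, not among the 4, had more, 21.7 and 19.2 per 10000, so CCK is not particular to cluster 17. It was detected in 94.6% and 84.0% of nuclei, and in 18.8% and 17.9% of oligodendrocytes. CHRM2, a muscarinic acetylcholine receptor, had 357 and 275 UMIs, or 7.97 and 5.21 per 10000, against 1.88, 2.77, 1.39 and 2.46. It was not among the 15 genes that stood furthest above every other joint cluster. A cluster outside the 4 thus came within 2-fold of its level or exceeded it. The peptides of other interneurons were low: SST had 12 and 16 UMIs, and NPY had 59 and 106, or 1.32 and 2.01 per 10000. PVALB had 45 and 25 UMIs, 1.00 and 0.474 per 10000, against 3.76 in cluster 14.

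Of the glutamate receptor genes, 2 of 21 tested were higher and 4 lower than in cluster 14, 2 of 20 higher and 7 lower than in cluster 16, and 2 of 21 higher and 6 lower than in cluster 13, and 0 differed the same way from all 4 compared clusters. GRIN2A, an NMDA receptor subunit, had 17.1 and 18.3 UMIs per 10000, against 2.58, 5.71 and 9.53 in clusters 14, 16 and 13. GRIN2B had 17.8 and 18.5, against 9.25, 7.60 and 3.13. GRIA1, an AMPA receptor subunit, had 1.76 and 1.99, against 11.003, 15.1 and 3.64, and GRIA3 had 4.06 and 5.17, against 16.1, 18.04 and 10.1. KCNC2, a potassium channel subunit of fast-spiking neurons, had 5.22 and 3.43 per 10000, against 15.7, 9.61 and 14.4. DPP6, an auxiliary subunit of A-type potassium channels, had 69.5 and 69.9, against 38.2, 32.3 and 27.5. KCNMB2, a subunit of calcium-activated potassium channels, had 6 and 2 UMIs.

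Of the adhesion, guidance and synapse organiser genes, 8 of 48 tested were higher and 4 lower than in cluster 14, 4 of 50 higher and 12 lower than in cluster 16, and 17 of 50 higher and 13 lower than in cluster 13. From all 4 compared clusters, 1 gene was higher (SEMA3C) and 2 lower (PLXNA4 and ELFN1), with no share over all genes to set beside these counts. SEMA3C, a secreted semaphorin, had 130 and 111 UMIs, or 2.90 and 2.10 per 10000, and lay at 0.828 or below in each compared cluster. Like CHRM2, it was not among the 15 genes furthest above every other joint cluster, so a cluster not compared came within 2-fold or exceeded it. UNC5C, a netrin receptor that was less than 2-fold above cluster 14, had 24.6 and 22.6, against 14.9, 9.61 and 1.88 in clusters 14, 16 and 13. CDH12, a cadherin, had 79.0 and 60.2, against 28.8, 37.9 and 29.6. PLXNA4, a semaphorin receptor, had 3 and 22 UMIs, against levels of 4.42, 6.56 and 12.96 per 10000 in clusters 14, 16 and 13. ELFN1, a postsynaptic organiser, had 4 and 5 UMIs, against 1.58, 3.12 and 12.2 per 10000. ROBO1, a receptor for SLIT ligands, had 6.14 and 8.70, against 44.5, 10.6 and 20.7.

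**Figure D2:**
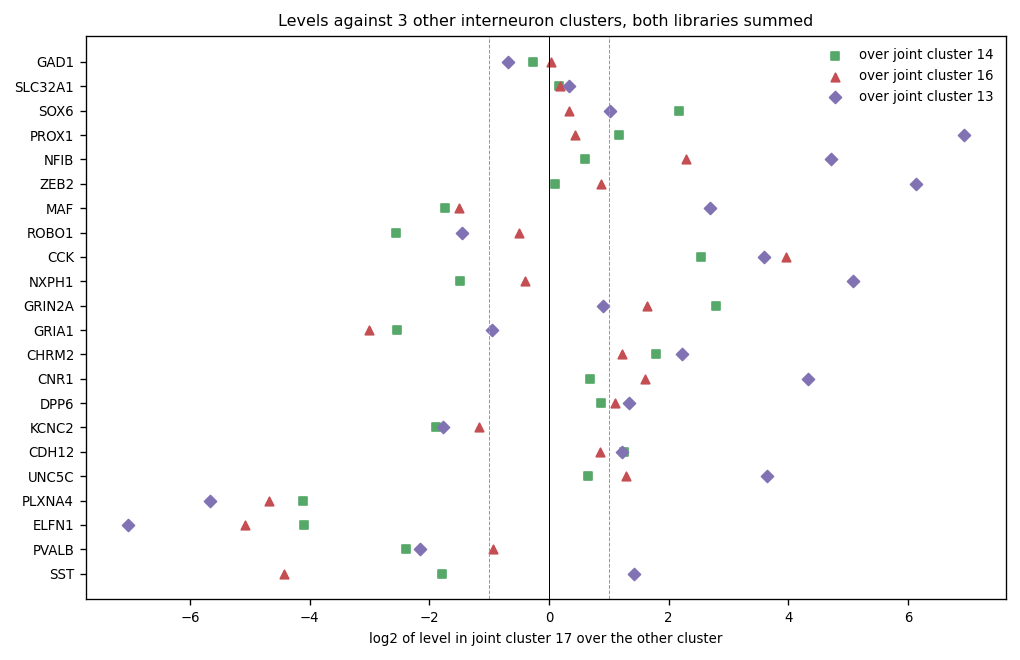
The log2 ratio of the level in joint cluster 17 over joint clusters 14 (squares), 16 (triangles) and 13 (diamonds) for 22 genes, libraries summed, with dashed lines at 2-fold. CCK, GRIN2A and CHRM2 lie to the right of 0 against all 3 clusters, and PLXNA4, ELFN1 and GRIA1 to the left.

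The 15 genes that stood furthest above every other joint cluster were PIEZO2, CXXC4, CALB2, KCNF1, ENAH, TP53I11, SYNPR, COL4A2, LHX6, GALNTL6, C5H11orf49, MPDZ, COL19A1, LRP4 and SDC3. PIEZO2, a mechanically gated ion channel, led with 285 and 241 UMIs, or 6.36 and 4.57 per 10000, against 1.57 in cluster 21, the next. SYNPR, a synaptic vesicle protein, had 14.01 and 12.9, against 6.12 in cluster 10. KCNF1, a silent potassium channel subunit, had 89 and 50 UMIs, or 1.99 and 0.947 per 10000. Only 8 of 1415 eligible genes were at least 2-fold above the next cluster. Ranked in the scrambled library or in the other library alone, 11 of the 15 were again in the first 15 in each case. The 15 were ranked on both libraries summed, so each library is part of that comparison. The first 15 of each library alone had 8 genes in common.

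Nuclei of the cluster also differed among themselves. Excess variance, the variance between nuclei beyond counting error relative to the squared mean, was computed in each library for 680 genes with at least 100 UMIs in both. Its lower value had a median of 0.0872 over these genes and a 95th percentile of 0.422. The most variable genes included PCDH9, LINGO2, KCNIP4, MID1, SEMA3C, CDH18, PPFIBP2, PHACTR1 and RASGRF2. PCDH9, a protocadherin, had 1.60 and 2.03 in the libraries, and MID1 had 2.15 and 1.45. KCNIP4 and PHACTR1 had levels of 58.7 and 166 per 10000 in MSNs, against 4.04 and 6.25, and 8.99 and 9.87, in cluster 17. PCDH9 (33.9), LINGO2 (7.46), MID1 (8.45) and CDH18 (9.54) were also at higher levels in MSNs than here, and the part of RNA from MSNs in the spread of these 6 genes was not tested. LHX6 had a lower excess variance, 0.389 and 0.708, as did CCK, with 0.337 and 0.743. The lower values of both genes were under the 95th percentile but above the median. CALB2 had 1.46 and 0.601, and its lower value was above the 95th percentile.

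Some of these genes differed between nuclei with and without MAF, chosen after its values were seen. In the scrambled library 92 nuclei had a MAF UMI and 75 had none, with median depths of 2697 and 2561 UMIs, and in the other library 117 had one and 52 had none, with 3067 and 2929. ROBO1 was at 7.62 and 4.11 per 10000 in nuclei with and without MAF in the scrambled library, and at 10.4 and 4.41 in the other. RASGRF2 had log2 ratios of 1.07 (0.417 to 1.76) and 1.83 (1.09 to 2.68), and MID1 of 1.67 (0.973 to 2.43) and 1.21 (0.455 to 2.04). These intervals cover counting error alone, and both genes varied between nuclei beyond it. MID1 had 21 and 17 UMIs in nuclei without MAF. KIRREL3, an adhesion molecule, went the other way, with ratios of -0.69 and -0.74. Its level in joint cluster 14 was 0.719 per 10000, below that in joint cluster 17. LHX6 had ratios of -0.06 (-0.463 to 0.357) and -0.41 (-0.845 to 0.0452). ROBO1, MID1 and RASGRF2, higher in nuclei with MAF, had levels of 44.5, 3.99 and 5.45 per 10000 in joint cluster 14, each above the level in joint cluster 17 as a whole. SEMA3C, with log2 ratios of 1.17 and 0.79, was also higher in nuclei with MAF but had 0.706 in joint cluster 14, below its level in joint cluster 17. Other genes with higher levels in joint cluster 14 did not all follow. PPFIBP2 (11.6 per 10000 there) had ratios of 1.21 and 1.00, LTK (29.7) 0.43 and 0.54, and PKIB (4.59) 0.26 and 0.88. CALCR (14.6) had 0.53 and 0.10, NXPH1 (36.5) -0.04 and 0.43, and KCNIP4 (12.7) -0.04 and 0.04. PVALB (3.76) had -0.51 and -0.96, with both intervals across 0. Of genes with lower levels in joint cluster 14, SOX6 (4.25) had -0.48 and -0.21, and PROX1 (4.10) -0.30 and 0.26. The split is by detection of at least 1 MAF UMI, and whether it separates types of nuclei was not tested.

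**Figure D3:**
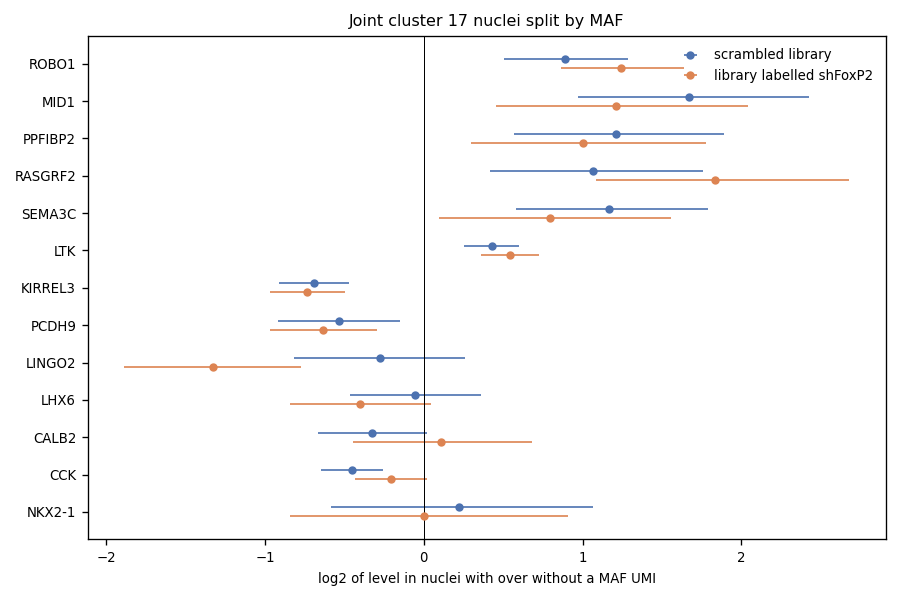
The log2 ratio of the level in nuclei of joint cluster 17 with over without a MAF UMI for 13 genes, in the scrambled library (blue) and the library labelled shFoxP2 (orange), with bars for the 95% counting interval. ROBO1, MID1, PPFIBP2, RASGRF2 and SEMA3C lie above 0 and KIRREL3 and PCDH9 below 0 in both libraries.

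The question of the study was what FoxP2 knockdown changes in Area X. Between the libraries, 3143 genes with at least 50 UMIs in cluster 17 could be compared. Their log2 ratios, library labelled shFoxP2 over scrambled, had a median of 0.00 and an SD of 0.47, against 0.29 from counting error alone. At least 2-fold higher were 42 genes (1.34%) and at least 2-fold lower 63 (2.00%), or 105 in all (3.34%). In clusters 14, 16 and 13 the SD was 0.46, 0.41 and 0.44, over their own 4739, 4458 and 6630 tested genes. The share from counting error was not computed for them. At least 2-fold apart there were 3.69%, 2.38% and 3.39% of genes, with 3.41% in cluster 21 and 7.41% in MSNs. The pathway list with the largest median ratio, 0.53, held 9 tested neuropeptide and transmitter genes and had 2 members at least 2-fold higher (NOS1 and CXCL14) and 1 lower (TAC1). NOS1 had 31 and 79 UMIs and a ratio of 1.11 (0.497 to 1.76). In MSNs its ratio was -1.15 (-1.302 to -0.997), the opposite direction. In clusters 14, 16, 13 and 21 it was -0.56, 0.07, -0.81 and -0.18, with all intervals across 0. Thinned to 1000 UMIs, 3.59% and 13.02% of nuclei here had NOS1, against 4.11% and 5.04% of oligodendrocytes. The part of background in its UMIs was not tested.

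**Figure D4:**
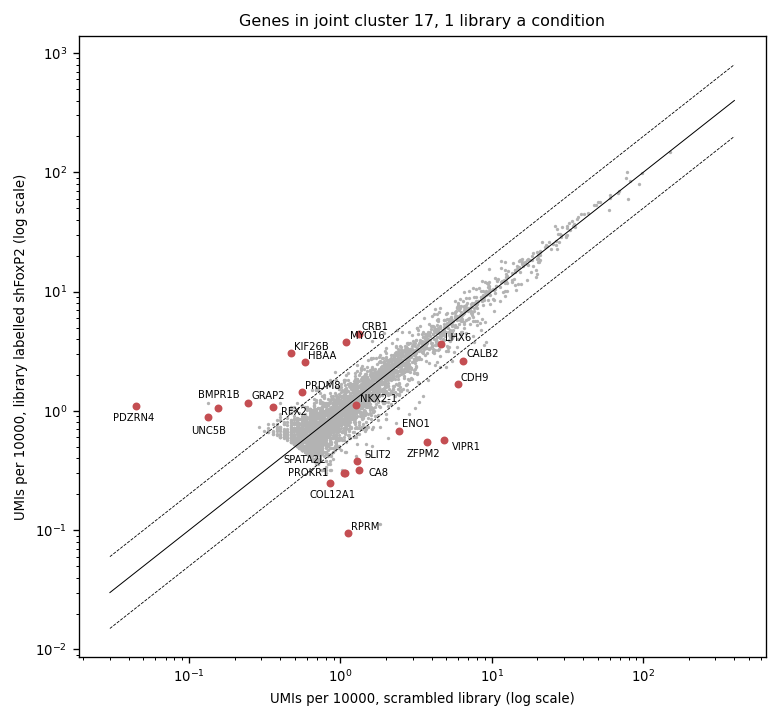
Level of each of 3143 genes in joint cluster 17 (UMIs per 10000, log axes) in the scrambled library and in the library labelled shFoxP2, with dashed lines at 2-fold and the named genes in red. CDH9, VIPR1 and ZFPM2 fall below the lower line and KIF26B, MYO16 and CRB1 above the upper line, while LHX6 and NKX2-1 lie between them.

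CALB2 was lower in the library labelled shFoxP2, at 6.43 and 2.63 UMIs per 10000, with a log2 ratio of -1.29 (-1.59 to -0.99). One nucleus of the scrambled library held 23 of its 288 UMIs, and without the richest nucleus of each library the ratio was -1.22. In clusters 14, 16 and 13 the ratios were -0.35, -0.99 and -0.62, and in MSNs -0.41. LHX6 had a ratio of -0.35 (-0.64 to -0.06) and NKX2-1 of -0.19 (-0.74 to 0.37). In clusters 14, 16 and 13 the LHX6 ratios were -0.06, -0.50 and -0.41, and in MSNs -0.53 (-0.79 to -0.27). PVALB, at 45 and 25 UMIs, had a ratio of -1.08 (-1.85 to -0.35), but its levels of 1.004 and 0.474 per 10000 were near those of oligodendrocytes, 1.01 and 0.712, and of joint cluster 1, 0.825 and 0.504, where it was lower in the second library too. KCNQ5, a potassium channel subunit of the M-current, had 104 and 42 UMIs and a ratio of -1.54 (-2.10 to -1.01).

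Genes without a symbol were left out of the rankings that follow, among them the gene with the lowest ratio of all, LOC115492305, with 82 and 6 UMIs and a ratio of -4.01. The 10 genes with a symbol that were lowest in the library labelled shFoxP2 were led by RPRM, VIPR1 and ZFPM2. RPRM had 50 and 5 UMIs, a log2 ratio of -3.56 (-5.24 to -2.24). It was also lower in clusters 14, 16 and 21, with ratios of -1.78, -2.03 and -1.92, on at most 29 UMIs in a library. In MSNs its ratio was -0.86 (-1.08 to -0.63), and in cluster 13 -0.57 (-1.85 to 0.73). VIPR1, a receptor for vasoactive intestinal peptide, had 216 and 30 UMIs, or 4.82 and 0.568 per 10000, and was detected in 67.1% and 11.8% of nuclei, against 2.71% and 1.02% of oligodendrocytes. Its ratio was -3.08 (-3.69 to -2.53), with -1.31 in MSNs, but -0.08 and -0.37 in clusters 16 and 13. In cluster 14 it was -2.87 (-4.90 to -1.26), on only 17 and 4 UMIs. In cluster 21, with its many high doublet scores, it was -3.46 (-4.57 to -2.52). ZFPM2, a cofactor of GATA transcription factors, had 166 and 29 UMIs and was detected in 48.5% and 13.02% of nuclei. In oligodendrocytes it was detected in 30.6% and 34.5%. Thinned to 1000 UMIs, the scrambled library had it in 25.1% of nuclei here and 25.2% of oligodendrocytes. In cluster 14 it had 20 and 32 UMIs in sums of 577116 and 994300, so oligodendrocytes are no plain background for it. The part of background in its UMIs here was not tested. The ZFPM2 ratio here was -2.75 (-3.38 to -2.18). It was larger in size than those in clusters 14, 16, 13 and 21 (-0.11, -0.11, 0.32 and -0.28) and in MSNs (-0.27), where the intervals did not overlap it.

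The other 7 were CA8, ENO1, CDH9, PROKR1, SPATA2L, COL12A1 and SLIT2, with ratios from -2.03 to -1.77. CA8 had a ratio of -3.40 in cluster 21, on 18 and 2 UMIs, but 0.11 in cluster 16. CDH9, a cadherin, had 266 and 88 UMIs, or 5.94 and 1.67 per 10000. It was found in 67.1% and 26.6% of nuclei, against 31.5% and 41.4% of oligodendrocytes, so the second share lies below theirs. In cluster 14 it had 61 and 75 UMIs in sums of 577116 and 994300, so oligodendrocytes are no plain background for it either. Its ratio was -1.83 (-2.20 to -1.48), against 0.42 in MSNs, and was -2.09 without the nucleus of each library richest in it (19 and 20 UMIs). ENO1, a glycolytic enzyme, was lower in the other populations too. Its ratios were -1.83 here, -1.10, -0.96, -0.83 and -1.59 in clusters 14, 16, 13 and 21 and -0.88 in MSNs.

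The 10 highest with a symbol were PDZRN4, BMPR1B, UNC5B, KIF26B, GRAP2, HBAA, MYO16, CRB1, RFX2 and PRDM8. PDZRN4 had 2 UMIs, both in 1 nucleus, in the scrambled library and 58 in the other, a log2 ratio of 4.62 with a counting interval of 2.70 to 7.70. In cluster 21 it had 0 and 19 UMIs, but in cluster 13 309 and 373, a ratio of -0.54. BMPR1B had a ratio of 2.76, with 1.90 in cluster 14 and 2.36 in cluster 21, but 0.28 in cluster 16. UNC5B, a netrin receptor, had 6 and 47 UMIs, with a ratio of 2.73 (1.505 to 4.25). KIF26B, a kinesin family member, had 21 and 160 UMIs and was detected in 10.8% and 56.2% of nuclei, against 4.58% and 4.86% of oligodendrocytes. Its ratio was 2.69 (2.03 to 3.42), against 1.14 in cluster 14 and 0.43 in MSNs. MYO16, an unconventional myosin, had 49 and 200 UMIs, a ratio of 1.79 (1.34 to 2.27). Its ratios were 0.27, 0.10, 0.17 and 0.50 in clusters 14, 16, 13 and 21, and 0.59 (0.53 to 0.66) in MSNs. It was detected in 19.8% and 56.2% of nuclei, against 9.4% and 21.5% of oligodendrocytes. CRB1, a cell polarity protein, had 59 and 235 UMIs, a ratio of 1.76 (1.34 to 2.19). In clusters 14, 13 and 21 its ratios were -0.25, 0.26 and 0.17, and in cluster 16 0.75, on 16 and 23 UMIs. In MSNs, where CRB1 was at a low level, the ratio was 1.71 (1.27 to 2.17) on 54 and 193 UMIs, close to that in cluster 17.

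HBAA, a haemoglobin gene of red blood cells, had 26 and 136 UMIs, but 1 nucleus held 79 of the 136, and the log2 ratio of 2.15 was 0.95 without the richest nucleus of each library. The second red blood cell marker measured, HBAD, had 5 and 24 UMIs. The part of red blood cell RNA in the other ratios was not tested.

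**Figure D5:**
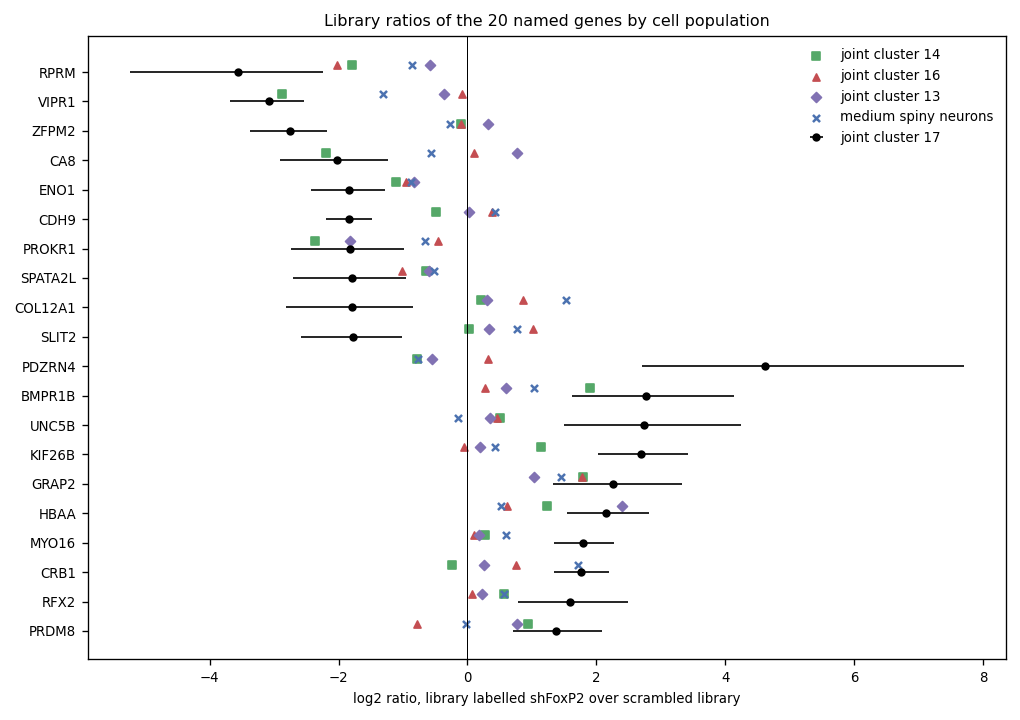
The log2 ratio between libraries for the 10 lowest and 10 highest named genes in joint cluster 17 (black, with 95% counting interval), and in joint clusters 14, 16 and 13 and in medium spiny neurons (coloured). ZFPM2 and CDH9 are lower only in joint cluster 17 beyond 1 on this scale among the populations plotted, while ENO1 and VIPR1 are lower in several.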

How the data were processed

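Nuclei were isolated from Area X punches and sequenced with droplet 3' chemistry. The authors aligned reads to the bTaeGut1_v1.p genome with CellRanger, filtered and clustered nuclei with Seurat, and deposited whole-number UMI counts per gene and nucleus, with the percent of mitochondrial genes and cluster numbers. The deposited counts were used as they are; all 27245 nuclei had gene counts that summed to the deposited total, over 17430 gene rows. No doublets were removed. Scrublet scores (scanpy 1.11.5) called none, so it had not worked, and the top 8% of scores per library stand for possible doublets in 1 alternative.

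UMIs were summed over the nuclei of a cluster and library and given per 10000. Genes with at least 50 UMIs over both libraries were compared, and 2-fold or more was called. A sum of 0 was set to 3. With 1 library per condition no test was run, and the intervals cover counting error only. Members, lists and genes were chosen with earlier results of these data known. Named genes were the markers, the 15 furthest above the next cluster, the 10 lowest and 10 highest library ratios and the 10 most variable, genes with a symbol only, of which 1 is not reported here. Genes of the lists without a symbol in the files were not analysed here.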

Additional observations from a re-analysis of the deposited data

Results flagged for a closer look

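Among the 20 genes with a symbol that had the lowest or highest library ratios, 4 had a ratio in joint cluster 17 opposite in direction to that in medium spiny neurons, with both counting intervals clear of 0. The difference itself was not tested, since each condition is 1 library. CDH9 had a log2 ratio of -1.83 against 0.42, COL12A1 of -1.78 against 1.53, SLIT2 of -1.77 against 0.76, and PDZRN4 of 4.62 against -0.77. MSNs held 217 and 682 UMIs of COL12A1, 422 and 782 of SLIT2 and 78 and 50 of PDZRN4. Joint cluster 1 alone held 8703212 and 8465348 UMIs, so all but CDH9 (21671 and 31642) were at low levels in MSNs. PDZRN4 had 0 and 19 UMIs in joint cluster 21, the same direction as in joint cluster 17.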

How the results depend on the processing

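The number of genes at least 2-fold apart depended on the minimum of UMIs per gene. With a minimum of 20 it was 193 higher and 324 lower, with a minimum of 200 it was 5 and 11, and thinned to 1000 UMIs per nucleus it was 11 and 19. The SD of the log2 ratios was 0.585, 0.364 and 0.452 in the same order. Thinning moved the ratios of RFX2 and PRDM8 to 2.79 and 2.36. The ratio of PDZRN4 became 2.30, but its thinned sum in the scrambled library was 0 and was set to 3. That value therefore depends on the setting for a sum of 0. The shares of nuclei with a marker fell when nuclei were thinned or 2 UMIs were asked for. Leaving out possible doublets, nuclei under 1000 UMIs or barcodes found in both libraries (chosen after seeing the data), centring the ratios, or averaging over nuclei changed no level, ratio or share difference of the cluster beyond its interval. The cluster held 0 nuclei under 1000 UMIs, 0 and 1 with a high doublet score and 0 and 2 with shared barcodes. Leaving these out could therefore hardly change its levels and ratios. Centring could not either, since the median ratio was 0.00. Leaving out the richest nucleus (also chosen after seeing the data) was run for the 20 genes with the lowest or highest ratios and the 3 markers and moved HBAA beyond its interval. All shScr members belong to cluster 17 of that library alone, so that alternative is identical. No paired analysis was possible because each condition is 1 library. Depth limits statements on genes under 50 UMIs.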
